A study of Mus musculus with 14 samples.

Results

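Microtubule-associated proteins bind the tubulin polymers that run through axons and dendrites, and 9 of their genes were followed here in the cerebral cortex of mice with and without Fmr1. The genes were Map1a, Map1b, Map1s, Map2, Map4, Map6, Mapt, Dcx and Stmn2, chosen by gene symbol out of 23412 genes in the deposited count table. All 9 symbols were found and matched RefSeq protein-coding mouse genes, and all 9 passed the filter on low counts in both assays. Control mice carried Rpl22flox/flox with CamKCre+, and knock-out (KO) mice carried the same alleles together with Fmr1X-Y. Both groups therefore shared a floxed Rpl22, the gene of a ribosomal protein, and a Cre driven by CamK, which the sample source names CAMKIIa-Ribotag. The protocols name no immunoprecipitation of tagged ribosomes, so the libraries are treated as whole cortex, and no age was used. RNA was sequenced from 4 controls (mice 1, 3, 6 and 8) and 4 KO animals (mice 2, 4, 5 and 7). Ribosome profiling, which sequences the mRNA fragments that ribosomes shield from nuclease (footprints), was done on 3 controls (mice 1, 3 and 9) and 3 KO animals (mice 2, 4 and 10).

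The MAP1 proteins are long polypeptides cut into a heavy and a light chain. Map1b is the member that predominates in growing axons and Map1a in the mature brain. Map2 sits in dendrites, tau (the product of Mapt) mostly in axons, and both bind along the microtubule lattice through repeats that Map4, the form found in most tissues, shares. Map6 protects microtubules against cold, doublecortin (Dcx) marks young neurons, and Stmn2 binds free tubulin dimers and promotes disassembly. FMRP, the protein encoded by Fmr1, binds RNA and associates with ribosomes, and the Map1b transcript is among its classic reported targets. The comparison asks how much RNA and how many footprints each gene had without Fmr1.

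Total counts were 8847547 to 11371851 in the 8 RNA libraries and 4124065 to 6033030 in the 6 footprint libraries. Fmr1 checked the labels, with RNA at 83.0 ± 8.37 CPM (counts scaled to a common library size; SD, n = 4) in control mice and 21.7 ± 2.40 (n = 4) in KO mice, and footprints at 114 ± 1.997 (n = 3) and 7.46 ± 1.43 (n = 3). The RNA libraries of KO mice 2, 4 and 7 lay close to sampling noise of each other. Their chi-square statistic divided by its degrees of freedom was 1.18 to 1.32, whereas the other RNA pairs of one genotype had 1.99 to 11.8. All footprint pairs of one genotype were as close, at 1.15 to 1.42. Within an assay the labels give each library its own mouse number, and nothing more on how the animals were prepared, so the p-values measure the spread between these libraries, which in footprints was little more than counting error. With those 3 libraries summed to 1, none of the 9 genes was called in RNA, where the lowest edgeR adjusted p was 0.331, for Map4, and the others ran from 0.558 to 0.932. In footprints 25.5% of all genes tested were called, which is the background for the marker calls given here. None of 44 cell type markers was at 0 in any library, and the markers of excitatory neurons, among them Slc17a7, were present in every cortex library. Summed marker CPM moved with genotype for several lists. Excitatory neuron markers in RNA were at 1977 to 2260 in control mice and 2554 to 2856 in KO mice, and in footprints at 4291 to 4398 and 4040 to 4162. Camk2a, the gene the Cre driver is named for, carried much of both: its RNA went from a mean of 467 to 786 CPM and its footprints from 3162 to 2866 CPM. Without Camk2a the sum in footprints was instead 1159 to 1191 in controls and 1226 to 1247 in KO mice, where edgeR called Slc17a7 and Neurod6 higher and Camk2a lower of the 4 genes and did not call Tbr1. In RNA that sum was 1561 to 1708 and 1825 to 1905. Oligodendrocyte precursor markers in footprints were at 404 to 411 in control mice and 320 to 341 in KO mice, with 3 of 4 genes called lower, and in RNA at 212 to 231 and 187 to 207. Oligodendrocyte markers in footprints were at 8692 to 8849 in control mice and 8528 to 8566 in KO mice, with 2 of the 7 genes called higher and 3 lower, and in RNA at 5081 to 5590 and 4484 to 4821. Inhibitory neuron markers in footprints were at 1625 to 1671 in control mice and 1698 to 1724 in KO mice, with 3 of 6 genes called higher and 1 lower. The sums of the other lists overlapped between genotypes in both assays. In astrocytes the sum is mostly Slc1a2, and without it footprints were at 1635 to 1678 in control mice and 1520 to 1538 in KO mice, while RNA overlapped. Of the 6 astrocyte genes, Gfap and Aqp4 were called lower in RNA, where 7.41% of all genes were called, and Gfap and Gja1 lower and Slc1a2 higher in footprints. The part of these differences in the results below was not tested, and in bulk tissue fewer cells of a type and less RNA per cell cannot be told apart.

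In footprints, 5 of the 9 genes fell in KO cortex, namely Map1a, Map1b, Map2, Map4 and Map6, and none rose (with plain library sizes Stmn2 did). A gene is called here when the edgeR quasi-likelihood test between genotypes gave a p-value under 0.05 after Benjamini-Hochberg adjustment over all genes tested. Of all 12158 genes tested in footprints, 25.5% were called, with 13.6% lower and 11.9% higher in KO mice. The median log2 fold change of the 9 genes was -0.20, against 0.0055 over all genes tested. In RNA 1 of the 9, Map4, was called lower and none higher, where 7.41% of 13507 genes were called, 3.88% lower and 3.53% higher. The median RNA fold change of the 9 genes was -0.017 on the log2 scale, against -0.0013 over all genes. The 9 genes together took 0.853%, 0.865% and 0.859% of all footprint counts in control mice 1, 3 and 9. In KO mice 2, 4 and 10 the same share was 0.661%, 0.665% and 0.667%, and the widest Wilson interval at 95% confidence in either group, which covers counting error only, ran from 0.844% to 0.862%. Map1a and Map1b made up most of this share: the other 7 genes took 0.247% to 0.249% in control and 0.233% to 0.234% in KO mice. In RNA the share of all 9 was 0.636% to 0.668% in control mice and 0.606% to 0.628% in KO mice, and in the exon columns the genotypes overlapped, at 0.649% to 0.678% and 0.610% to 0.657%.

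**Figure D1:**
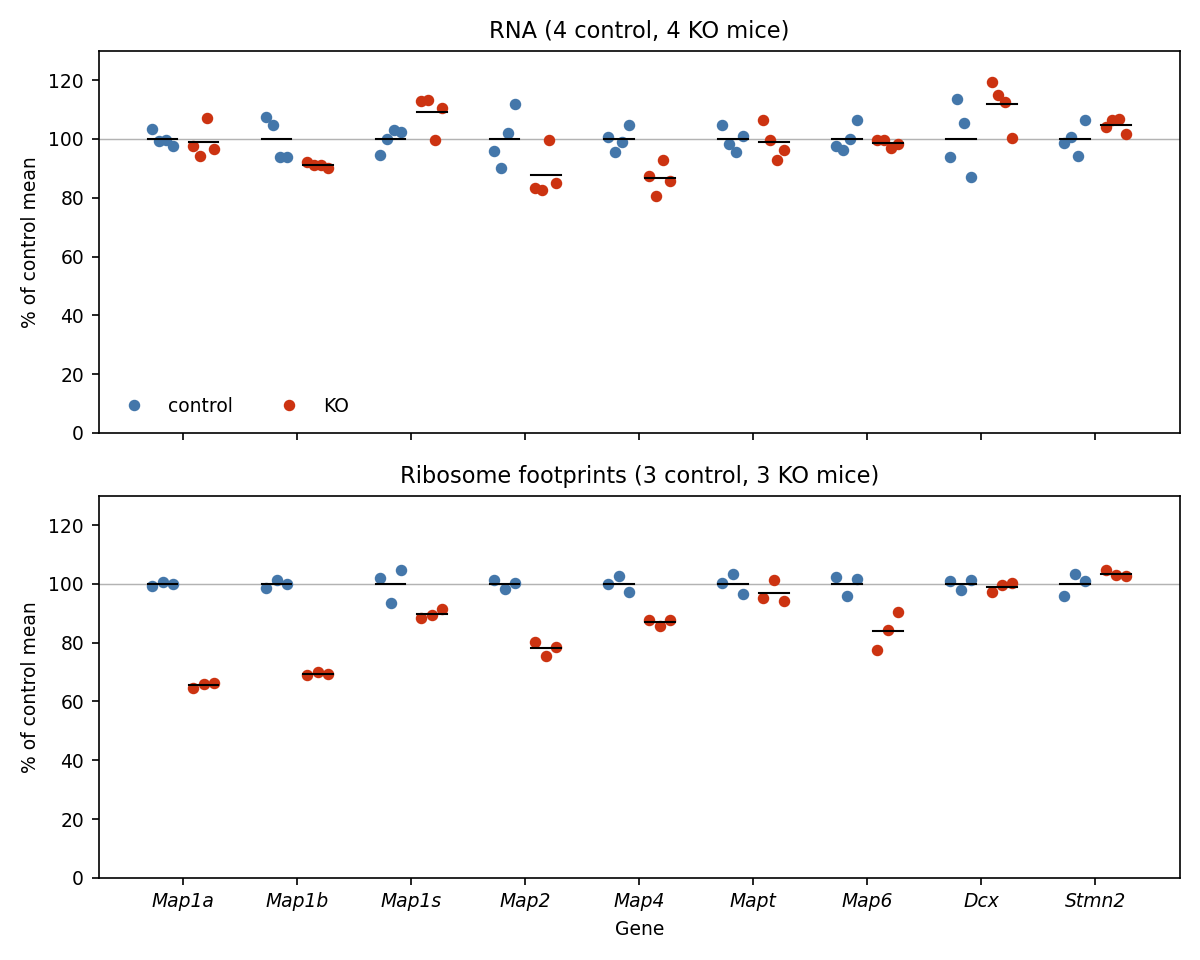
RNA (upper panel) and footprint (lower panel) CPM of the 9 genes, as a percent of the control mean of that gene and assay, with 1 point per mouse in blue for control and red for KO and black bars at the group means. In footprints the KO means were at 65.6% of control for Map1a and 69.5% for Map1b, and all KO points of Map1a, Map1b, Map1s, Map2, Map4 and Map6 lie below all control points.

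Map1a, the MAP1 member of mature neurons, had the largest footprint difference of the 9. Its footprint level was 2960, 3005 and 2984 CPM in control mice 1, 3 and 9. In KO mice 2, 4 and 10 it was 1931, 1965 and 1978 CPM. The 3 KO libraries were all far below the 3 control libraries, and the spread within a genotype was small beside the gap. The log2 fold change was -0.61 ± 0.020 (SE; edgeR adjusted p = 1.74e-47), a change of -34.4%, and 2.28% of the genes tested lay further down. Map1a RNA, by contrast with that value, was at 2714, 2610, 2614 and 2564 CPM in control mice 1, 3, 6 and 8 and at 2561, 2471, 2815 and 2535 CPM in KO mice 2, 4, 5 and 7. The RNA groups overlapped, KO mouse 5 having the highest value of all 8. The RNA log2 fold change was -0.017 ± 0.057 (edgeR adjusted p = 0.894), with a 95% interval of -0.14 to 0.11.

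Map1b, the classic FMRP target of the set, gave 3228, 3312 and 3270 CPM of footprints in control mice 1, 3 and 9. KO mice 2, 4 and 10 gave 2257, 2292 and 2265 CPM. The genotypes were again widely apart. The fall was -0.53 ± 0.019 on the log2 scale (edgeR adjusted p = 4.14e-43), or -30.6%, with 3.42% of genes further down. Map1b RNA was at 2456, 2395, 2147 and 2143 CPM in control mice 1, 3, 6 and 8, and at 2109, 2079, 2085 and 2060 CPM in KO mice 2, 4, 5 and 7. All 4 KO libraries were below the lowest control library, but only narrowly: control mice 6 and 8 lay near the KO mice and control mice 1 and 3 were higher. The RNA log2 fold change of -0.13 ± 0.059 did not pass after adjustment (edgeR adjusted p = 0.188, unadjusted p = 0.0401), and its interval was -0.26 to -0.0069. Among mice 5 to 8 alone, which share a title prefix, the RNA difference was -0.049 (edgeR adjusted p = 0.885). Among mice 1 to 4 alone it was -0.21 (edgeR adjusted p = 4e-06), and these are the ends of the range over 19 alternatives. Map1b and Map4 were the 2 members whose RNA libraries did not overlap, both lower in KO mice, where 7.97% of all genes tested did so, and none was higher without overlap, where 7.1% of genes were.

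Map1s, the short and broadly expressed MAP1 gene, had a smaller and uncertain footprint difference. Its footprint level was 77.4, 71.1 and 79.4 CPM in control mice 1, 3 and 9 and 67.0, 67.8 and 69.5 CPM in KO mice 2, 4 and 10. The libraries did not overlap, yet control mouse 3 came close to the KO mice. The log2 fold change of -0.15 ± 0.070 was not called (edgeR adjusted p = 0.101). Map1s RNA was 55.2 ± 2.10 CPM (SD, n = 4) in control and 60.2 ± 3.49 CPM (n = 4) in KO mice, with overlapping libraries and a log2 fold change of 0.13 ± 0.066 (edgeR adjusted p = 0.267). Map1s was thus below control in footprints and above control in RNA, with neither value called. Over 19 alternatives the RNA value ran from 0.035 to 0.22 (edgeR or DESeq2 adjusted p from 0.0214 to 0.933), and it was called in 1 of them.

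Map2, the dendritic member, fell in footprints by less than Map1a and Map1b. Control mice 1, 3 and 9 had 687, 665 and 679 CPM and KO mice 2, 4 and 10 had 544, 511 and 531 CPM. Every KO library was below every control library. The log2 fold change was -0.36 ± 0.028 (edgeR adjusted p = 1.44e-19), or -21.9%. Map2 RNA was at 615, 578, 655 and 717 CPM in control mice 1, 3, 6 and 8 and at 534, 530, 640 and 545 CPM in KO mice 2, 4, 5 and 7. KO mouse 5 alone lay within the control range, and the other 3 KO mice were below it. The RNA difference was -0.19 ± 0.076 (edgeR adjusted p = 0.14), and without KO mouse 5 it was -0.25 (edgeR adjusted p = 0.0286; 0.00233 to 0.649 over 19 alternatives).

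Map4, the member found in most tissues, fell in both assays by about the same amount. Its footprint level was 405, 417 and 394 CPM in control mice 1, 3 and 9 and 356, 348 and 356 CPM in KO mice 2, 4 and 10. Its RNA level was 217, 207, 213 and 226 CPM in control mice 1, 3, 6 and 8 and 189, 174, 200 and 185 CPM in KO mice 2, 4, 5 and 7. Neither assay showed overlap between genotypes. The footprint log2 fold change was -0.20 ± 0.033 (edgeR adjusted p = 6.12e-07) and the RNA log2 fold change -0.21 ± 0.057 (edgeR adjusted p = 0.0381). The RNA call was lost in 9 of 19 alternatives, whose adjusted p ran from 0.00169 to 0.479. Those were the columns headed exon (log2 fold change -0.074, adjusted p = 0.479), KO mice 2, 4 and 7 summed (-0.17, adjusted p = 0.331), those 3 and control mice 1 and 3 summed (0.443) and mice 5 to 8 alone (0.415). The call was also lost without control mouse 1 (0.0852) or 6 (0.087) and without KO mouse 2 (0.0995), 4 (0.147) or 7 (0.116).

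Map6, the cold-stability protein, fell in footprints, and its RNA was not called. Control mice 1, 3 and 9 had 229, 215 and 228 CPM and KO mice 2, 4 and 10 had 174, 189 and 203 CPM. The libraries did not overlap, although the KO mice were spread more widely than for Map1a or Map1b. The log2 fold change was -0.24 ± 0.044 (edgeR adjusted p = 4.97e-06). Map6 RNA was 202 ± 9.24 CPM (SD, n = 4) in control and 199 ± 2.62 CPM (n = 4) in KO mice, with overlapping libraries and a log2 fold change of -0.018 ± 0.051 (edgeR adjusted p = 0.868).

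Mapt, Dcx and Stmn2 were not called in either assay, and their libraries overlapped in both. Tau footprints from Mapt were at 495, 510 and 476 CPM in control mice 1, 3 and 9 and 471, 500 and 465 CPM in KO mice 2, 4 and 10. KO mouse 4 exceeded 2 of the 3 control mice. The Mapt footprint log2 fold change was -0.046 ± 0.031 (edgeR adjusted p = 0.292), with a 95% interval of -0.11 to 0.015 that excludes a fall of the size seen for Map1a or Map1b. Doublecortin had few footprints, 28.7 to 29.7 CPM in control and 28.5 to 29.4 CPM in KO mice, and its interval of -0.23 to 0.20 was the widest of the 9. Stmn2 footprints were 628 ± 23.7 CPM (SD, n = 3) in control and 649 ± 6.67 CPM (n = 3) in KO mice, with a log2 fold change of 0.044 ± 0.028 (edgeR adjusted p = 0.262; 0.00207 to 0.73 over 12 alternatives). With plain library sizes in place of TMM the Stmn2 value was 0.10 and was called. Stmn2 was the only one of the 9 whose footprint value was above control, although with plain library sizes Mapt (0.013) and Dcx (0.047) were also above 0, uncalled. In RNA the log2 fold changes were -0.017 ± 0.057 for Mapt (edgeR adjusted p = 0.893), 0.16 ± 0.096 for Dcx (0.329) and 0.067 ± 0.052 for Stmn2 (0.485).

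In all, 6 of the 9 genes had 3 KO footprint libraries below all 3 control libraries, where 19.2% of all genes tested did so, and none had the reverse pattern, which 18.1% of genes did. The 5 footprint calls held in all 12 alternatives run for that comparison, which included leaving out each mouse, DESeq2, other scalings and a fit with the title prefix as a block. The largest adjusted p among them was 0.0162, for Map4.

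**Figure D2:**
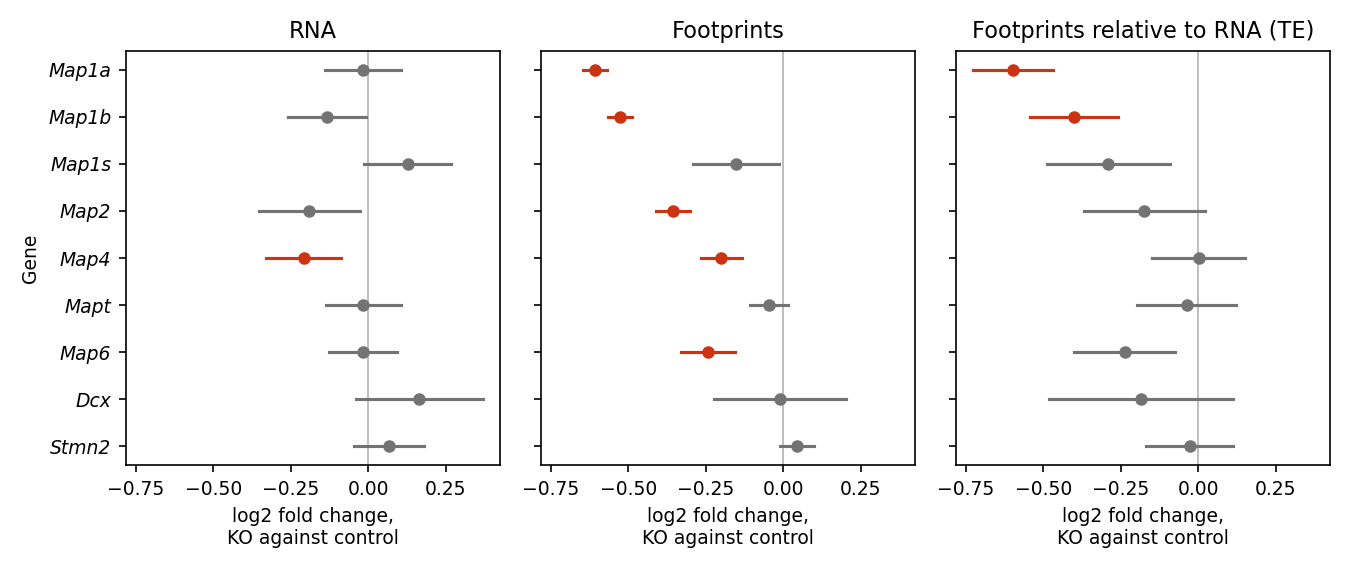
Log2 fold change (KO against control) of each gene in RNA, footprints and translational efficiency (TE, footprints relative to RNA), with lines for the 95% intervals from the edgeR fit, red for an adjusted p under 0.05 and grey otherwise. The footprint points run from -0.61 for Map1a to 0.044 for Stmn2, while the RNA points lie between -0.21 for Map4 and 0.16 for Dcx.

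Translational efficiency (TE), the footprint level relative to the RNA level of a gene, was lower in KO mice for Map1a and Map1b. It was tested as the interaction of genotype and assay over all 14 libraries, and 2 of the 9 genes were called, both lower. Of 12145 genes tested for TE, 7.81% were called, 4.41% lower and 3.4% higher. The Map1a TE changed by -0.60 ± 0.062 on the log2 scale (edgeR adjusted p = 4.5e-06), and 2.54% of genes were further down. The Map1b TE changed by -0.40 ± 0.068 (edgeR adjusted p = 0.000711), with 7.95% of genes further down. For Map1a the TE value was close to the footprint value, while for Map1b it was smaller, its RNA value being below control as well. Both calls held in all 20 alternatives, with adjusted p up to 0.000309 for Map1a and 0.0136 for Map1b. The median TE change of the 9 genes was -0.18, against -0.011 over all genes.

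Map1s and Map6 came next in TE. The Map1s TE value was -0.29 ± 0.095 (edgeR adjusted p = 0.0634) and the Map6 value -0.24 ± 0.079 (0.0665), neither called. Map2 had a TE value of -0.17 ± 0.094 (edgeR adjusted p = 0.28). Mapt at -0.037 ± 0.077 and Stmn2 at -0.028 ± 0.068 lay near 0, and the Dcx value of -0.18 ± 0.14 had the widest interval, -0.48 to 0.11. Map4 was at 0.0015 ± 0.073 (edgeR adjusted p = 0.995), its RNA and footprints having changed in step in the RNA columns without a suffix. With the columns headed exon the Map4 RNA change was -0.074 and its TE change -0.11, neither called.

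Mice 1 to 4 gave both kinds of library, so TE was also fitted with the mouse as a block. In that fit 5 of the 9 genes were called lower, at edgeR adjusted p-values of 1.3e-22 for Map1a (log2 change -0.55), 4.22e-09 for Map1b (-0.32) and 0.000166 for Map6 (-0.34), 0.00419 for Map2 (-0.21) and 0.0192 for Map1s (-0.36). That fit called more genes in general, 14.9% of all genes, with 8.37% lower and 6.55% higher. Its TE change rests on control mice 1 and 3 and KO mice 2 and 4. The other mice gave only RNA or only footprints. Between the RNA libraries of these mice, chi-square divided by its degrees of freedom was 1.99 for the control pair and 1.32 for the KO pair. Their deviations from the group means hardly correlated between assays, at r = -0.0050 to 0.046. Over the 20 alternatives the adjusted p ran from 0.000154 to 0.284 for Map6, from 0.00287 to 0.515 for Map2 and from 0.0121 to 0.223 for Map1s. Without the block, Map6 and Map1s were also called when KO mouse 5 was left out (adjusted p = 0.0491 and 0.0215) or control mouse 8 (0.0204 and 0.0474), and Map6 without KO mouse 10 (0.0433), all lower.

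Footprints per RNA were also taken within each of mice 1 to 4. For Map1a, log2 of footprint CPM over RNA CPM was 0.13 and 0.20 in control mice 1 and 3 and -0.41 and -0.33 in KO mice 2 and 4. For Map1b it was 0.39 and 0.47 in the control mice and 0.098 and 0.14 in the KO mice. Both KO mice were below both control mice for these genes, and the same held for Map1s, Map2 and Map6, while Map4, Mapt, Dcx and Stmn2 overlapped. With 2 mice against 2, 27.4% of all 12145 genes separated in that direction and 26.2% in the other. The median over all 12145 genes was -0.14 and -0.15 in control mice 1 and 3 and -0.13 in both KO mice. Mapt, the tau gene, was far above that median in every mouse, at 1.42 and 1.56 in control mice 1 and 3 and 1.33 and 1.51 in KO mice 2 and 4. Stmn2 was between 1.17 and 1.26 in the 4 mice. These values hold for RNA columns without a suffix only: with the columns headed exon the mean of control mice 1 and 3 went from 1.49 to 0.19 for Mapt and from 1.22 to 0.93 for Stmn2.

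**Figure D3:**
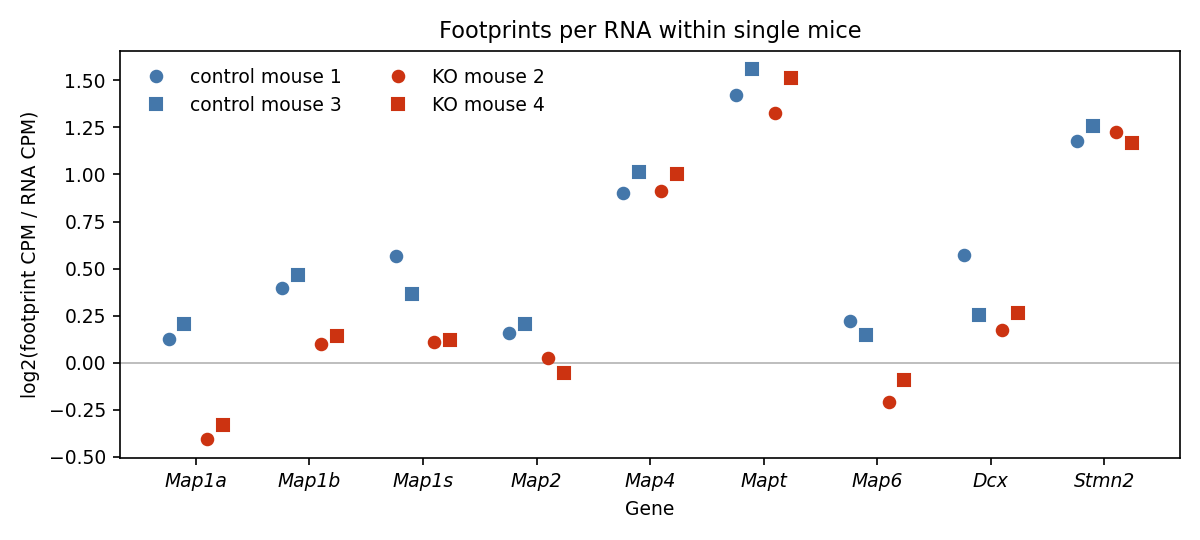
Log2 of footprint CPM over RNA CPM for each gene in control mice 1 and 3 (blue) and KO mice 2 and 4 (red), 1 point per mouse, with a grey line at 0. Map1a lies above 0 in the control mice, at 0.13 and 0.20, and below it in the KO mice, at -0.41 and -0.33, whereas Mapt and Stmn2 are above 1 in all 4 mice.

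Ratios within a library need no scaling between libraries. In footprints, log2 of Map1b over each other member was lower in all 3 KO libraries than in all 3 control libraries for 7 of the 8 other genes. Of all 12157 other genes tested, 80% separated from Map1b in this direction and 0.658% in the opposite one (a count of 0 taken as 0.5), so the 7 do not stand out. The difference was -0.57 against Stmn2, -0.51 against Dcx and -0.48 against Mapt. It was -0.37 against Map1s, -0.33 against Map4, -0.27 against Map6 and -0.17 against Map2. Against Map1a the ratio was instead higher in KO mice, by 0.082, from 0.13 ± 0.0077 (SD, n = 3) in control to 0.21 ± 0.016 (n = 3) in KO mice, so Map1a had the larger footprint change of the pair. Each of these comparisons reached p = 0.1 in a two-sided exact permutation test, the smallest that 3 against 3 libraries allow, and 0.145 after adjustment over the 16 ratios tested. In RNA none of the 8 ratios separated the genotypes.

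The deposited RNA counts come in 2 kinds of column, and the choice mattered for some members. The columns without a suffix held 83.4% (mean of 4 control mice) of the exon-column count for Map1a, 87.3% for Map1s and 67.4% for Map6. The share was 59.6% for Map1b and 44.9% for Stmn2. It was 28.2% for Map4, 25.5% for Map2, 23.1% for Mapt and 15.9% for Dcx. Which region each kind of column covers is not given in the sources used here, so RNA values of Map2, Map4, Mapt, Dcx and Stmn2 rest on the smaller portion of their exon counts. The share differed most clearly between genotypes for Map1s, at 86.1% to 88.4% in control and 89.2% to 90.6% in KO mice (exact permutation p = 0.0286, the smallest 4 against 4 allow; 0.257 adjusted over 9 genes). None of the 9 passed after adjustment. In the exon columns Map1b was the single member whose KO libraries were all below control, at 2082 ± 116.5 CPM (SD, n = 4) in control and 1871 ± 33.9 CPM (n = 4) in KO mice. Dcx and Stmn2 were above control in every KO library of the exon columns. Over all genes tested in the exon columns, 8.09% had all KO libraries below control and 7.7% above. Dcx was at 60.5 to 79.7 CPM in control and 80.3 to 86.5 CPM in KO mice, and Stmn2 at 308 to 343 and 346 to 362 CPM. None of the 9 was called there.

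The 5 genes most like Map1b, by Pearson correlation over the 14 libraries of log2 CPM centred within each assay, were Dicer1 (r = 0.97), Fam65b (0.97), Fat1 (0.97), Tnr (0.97) and Zfp462 (0.97), out of 8922 genes at 10 CPM or more in both assays. Centring within each assay left the difference between genotypes in these values, and for Map1b footprints it was large. Genes picked in this way are likely to have lower KO footprints. The correlation and the fold changes of the picked genes are therefore a description. The footprint log2 fold changes of these 5 ran from -0.96 for Dicer1 to -0.35 for Fam65b. Among the members Map1a was closest to Map1b, at r = 0.93 and rank 43, followed by Map6 at 0.72, Map2 at 0.70 and Map4 at 0.69. Mapt stood at 0.37, Map1s at 0.31 and Dcx at -0.048. Stmn2 had r = -0.41 and rank 6619.

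Other genes of the microtubule system were counted from lists of tubulins, other structural MAPs, stathmins, plus-end and minus-end proteins, severing and tubulin-modifying enzymes, and kinases and phosphatases that act on MAPs. Of 120 listed genes, 117 were in the table. In footprints 35 of 112 tested (31.2%) were lower in KO mice and 14 (12.5%) higher, beside 13.6% and 11.9% of all genes. The median over the lists was -0.040, against 0.0055 over all genes. In TE 15 of 112 (13.4%) were lower and 4 higher, beside 4.41% and 3.4% of all genes. In RNA 7 of 116 (6.03%) were lower and 8 (6.9%) higher, beside 3.88% and 3.53% of all genes. The counts of single lists given next have these same shares of all genes as their background. In footprints the count of lower genes was 25 to 35 over 12 alternatives, and that of higher genes was 9 with DESeq2 and 6 with one fit over 14 libraries. The TE count of lower genes was 7 without KO mouse 2 and 9 without KO mouse 4. The TE count of higher genes was 1 or 2 without control mouse 1, 3 or 9 or KO mouse 2, 4, 7 or 10, and 9 without KO mouse 5 or control mouse 8. With mouse as a block, 19 were lower and 13 higher in TE. With KO mice 2, 4 and 7 summed, which also leaves fewer libraries, 0 were lower and 2 higher (Cdk5r2 and Clip3) in RNA. Without control mouse 1, 3 or 6 or KO mouse 2, 4 or 7 the RNA counts were 1 to 4 lower and 4 or 5 higher, and without control mouse 8 they were 15 lower and 14 higher. Mice 1 to 4 alone gave 30 lower and 24 higher in RNA, and mice 5 to 8 alone 0 lower and 2 higher. With plain library sizes in place of TMM, 27 were lower and 31 higher in footprints.

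**Figure D4:**
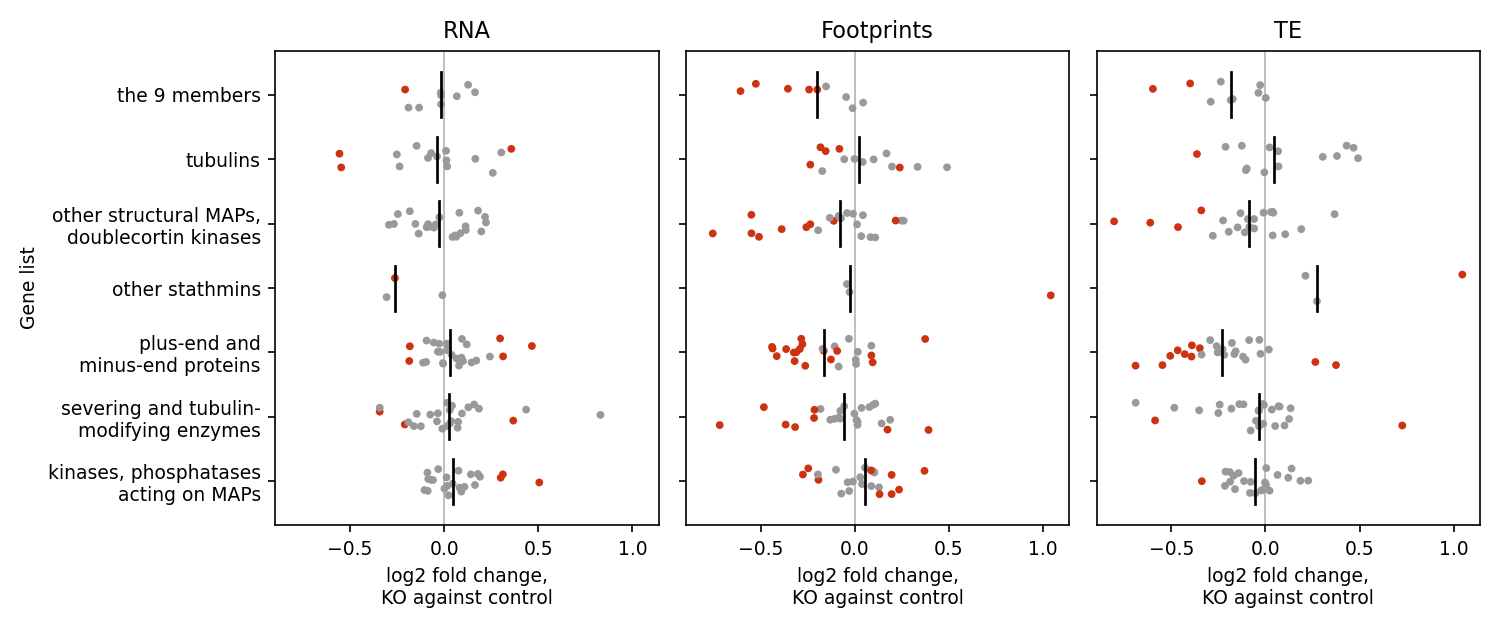
Log2 fold change (KO against control) in RNA, footprints and TE of the 9 genes and of each list of microtubule genes, 1 point per gene tested, red for an edgeR adjusted p under 0.05 and grey otherwise, with black bars at the medians and points spread vertically at random. In footprints the plus-end and minus-end proteins have a median of -0.16, with 14 of 25 called lower, and the point at 1.04 is Stmn1.

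Proteins of the growing and the anchored microtubule end had the most lower footprint calls of the lists. Of 25 tested, 14 were lower and 3 higher, with a median of -0.16. The 14 included all 3 CAMSAP genes (Camsap1, Camsap2, Camsap3), which bind minus ends, all 3 navigators (Nav1, Nav2, Nav3), and Apc, Apc2, Clip1, Clip2, Clasp2, Ckap5, Dctn1 and Pafah1b1. In TE 8 of the 25 were lower and 2 higher, with a median of -0.23. Dctn1, the largest dynactin subunit, had a TE change of -0.69 ± 0.13 (edgeR adjusted p = 0.00192). Its footprints went from 369 ± 8.95 to 272 ± 17.3 CPM (SD, n = 3 each; log2 fold change -0.44 ± 0.036, edgeR adjusted p = 1.31e-18). Dctn1 RNA was above control in KO mice and not called (0.24 ± 0.10, edgeR adjusted p = 0.157). Clip3, a CLIP-170-related gene, rose in RNA from 212 ± 14.4 to 293 ± 23.7 CPM (SD, n = 4 each; log2 fold change 0.47 ± 0.067, edgeR adjusted p = 0.00128). Clip3 footprints were not called (0.0070, edgeR adjusted p = 0.877), and its TE was called lower (-0.47 ± 0.082, edgeR adjusted p = 0.00099). Ndel1, a dynein regulator, rose in footprints from 57.1 ± 5.27 to 74.4 ± 5.43 CPM (0.37 ± 0.075, edgeR adjusted p = 3.8e-05) and in TE (0.37 ± 0.11, edgeR adjusted p = 0.036; 0.40 and 0.0609 with KO mice 2, 4 and 7 summed). The TE of Mapre1, the end-binding protein EB1, rose by 0.27 ± 0.079 (edgeR adjusted p = 0.0415; 0.23 and 0.165 with KO mice 2, 4 and 7 summed). Its RNA was called lower (-0.18, edgeR adjusted p = 0.0466) and its footprints were not called (0.088, adjusted p = 0.255).

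Among 22 other structural MAPs tested in footprints, 8 were lower and 1 higher, and among 23 tested in RNA none was called. The spectraplakins, giant proteins that link actin to microtubules, were among the lower genes. Dst went from 512 ± 14.1 to 304 ± 11.8 CPM of footprints (log2 fold change -0.75 ± 0.033, edgeR adjusted p = 6.49e-37) and Macf1 from 396 ± 7.86 to 271 ± 11.7 CPM (-0.55 ± 0.035, edgeR adjusted p = 3.85e-25). Their TE changes were -0.80 ± 0.13 (edgeR adjusted p = 0.000429) and -0.61 ± 0.17 (0.0284), and with KO mice 2, 4 and 7 summed they were -0.78 for Dst (adjusted p = 0.00314) and -0.54 for Macf1 (0.101). Eml4, an EMAP-like gene with few footprints, went from 31.9 ± 1.07 to 21.8 ± 1.16 CPM (-0.55 ± 0.11, edgeR adjusted p = 6.26e-05). The light chain 3 gene Map1lc3a was the 1 higher of the list.

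The tubulins, which form the polymer itself, moved in both directions. In footprints 4 of 14 were lower (Tubb2a, Tubb3, Tubb4b and Tubb5) and Tuba1a was higher, and in TE Tubb4a alone was called, lower. In RNA 1 of 15 was higher and 2 were lower. Tubb4a was the higher one (0.36 ± 0.091, edgeR adjusted p = 0.0294), with footprints at -0.0013. Tubb2b RNA was at 158 ± 26.6 CPM in control and 108 ± 17.4 CPM in KO libraries (SD, n = 4 each; log2 fold change -0.56 ± 0.12, edgeR adjusted p = 0.0132). Tubb2a went from a mean of 835 CPM to 571 CPM in the same libraries (-0.55 ± 0.092, edgeR adjusted p = 0.00342). With KO mice 2, 4 and 7 summed all 3 of these RNA calls were lost while the log2 fold changes kept their sign, at 0.47 for Tubb4a (adjusted p = 0.077), -0.45 for Tubb2b (0.201) and -0.50 for Tubb2a (0.108). Tubb2a and Tubb2b are neighbouring, nearly identical paralogs, so the split of reads between them may be uncertain, which was not tested. Tubb2b is also on the immature neuron list and makes up most of its sum: the other 6 genes summed to 38.8 to 40.1 CPM of RNA in control and 37.9 to 42.8 CPM in KO mice. Tbca, a chaperone of beta-tubulin folding, was lower in RNA (-0.34 ± 0.071, edgeR adjusted p = 0.0118; -0.31 and 0.191 with KO mice 2, 4 and 7 summed) and higher in footprints (0.39 ± 0.11, edgeR adjusted p = 0.00267), and its TE rose by 0.73 ± 0.14 (edgeR adjusted p = 0.00229). Of 25 severing and modifying enzymes tested in footprints, Tbca and Ttll7 were higher and 6 were lower. Ttll12 rose in RNA (0.37 ± 0.099, edgeR adjusted p = 0.0361; 0.31 and 0.304 with KO mice 2, 4 and 7 summed).

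Of 23 kinases and phosphatases that act on MAPs, 6 (26.1%) were higher and 3 (13%) lower in footprints, beside 11.9% and 13.6% of all genes, and 3 (13%) were higher and none lower in RNA, beside 3.53% and 3.88%. Cdk5r2, the p39 activator of the tau kinase Cdk5, rose in RNA from 116 ± 11.6 to 165 ± 16.5 CPM (SD, n = 4 each; log2 fold change 0.51 ± 0.081, edgeR adjusted p = 0.00268). Its footprints rose from 181 ± 4.01 to 234 ± 10.8 CPM (SD, n = 3 each; 0.37 ± 0.043, edgeR adjusted p = 7.24e-12). In TE Mark2, a tau kinase, was the 1 called, lower. Of the 3 other stathmins, Stmn3 was lower in RNA (-0.26 ± 0.072, edgeR adjusted p = 0.0404; -0.30 and 0.204 with KO mice 2, 4 and 7 summed). Stmn1, named after its values were seen, was higher in footprints and TE on only 9, 17 and 12 counts in control mice 1, 3 and 9 and 21, 20 and 26 in KO mice 2, 4 and 10.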

How the data were processed

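The authors deposited whole-number counts per gene, not normalized, in 1 table of 23412 genes. Per the submitters' processing notes the tools were Bowtie2, STAR 2.5, featureCounts and Subread 1.4.6, and the builds mm9 and mm10. Their roles, the annotation, the strand setting and the counted region are not given in the sources used here, so no coordinates or sequences are printed. In 2849 genes the footprint columns held no value. RNA columns without a suffix were used, and those headed exon were an alternative.

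Counts were tested with edgeR 4.0.16 (R 4.3.3): quasi-likelihood F test, TMM scaling, filterByExpr with a minimum count of 10, two-sided, Benjamini-Hochberg over all genes tested. RNA and footprints were fitted separately and TE as an interaction over 14 libraries. SEs of log2 fold changes came from the F statistic. DESeq2 1.42.0, limma voom 3.58.1, other scalings, no filter, summed or fewer libraries and blocks were alternatives. Alternatives for the pathway genes, and sums without their dominant genes, were chosen after seeing the data. The code was tested on simulated data. CPM values use TMM library sizes and are not per length, so CPM levels are not compared between genes.

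The members, the gene lists and the tests were chosen with earlier results of these data known. One marker gene of the lists is not reported here. Pathway genes named with values were, in each comparison, the 3 called genes that rose most and the 3 that fell most, at a mean of at least 5 CPM, plus genes that make up small counts. Mice 1 to 4 are the same animals in both assays, per the labels. Their deviations from the group means correlated between assays by r = 0.0038, 0.015, 0.046 and -0.0050 over 8923 genes.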

Additional observations from a re-analysis of the deposited data

Results flagged for a closer look

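Map2 RNA in KO mouse 5 stood apart from the other KO mice, at 640 CPM against 530 to 545 CPM in KO mice 2, 4 and 7. The gap was 0.869 of the range of the 4 libraries. The 4 RNA libraries of each genotype were examined in this way for the 9 genes and the total counts, 20 groups in all, of which chance alone flags about 1 in 20.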

How the results depend on the processing

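Of 459 recomputed values of the 9 genes (27 results), 400 kept their direction and side of the threshold, 9 lost the call (all Map4 RNA), 20 gained one and 30 changed sign, of which 0 belonged to a called result. The cause of the changes below was not tested. Genes called in RNA, 1001 in the main test, were 1739 with one fit over 14 libraries, 79 with KO mice 2, 4 and 7 summed, 36 with control mice 1 and 3 summed too, 88 in mice 5 to 8, 3273 in mice 1 to 4, and 356 to 1763 leaving out 1 mouse (lowest without KO mouse 4, highest without control mouse 8). Members called in RNA, 1 in the main test, were 0 with exon columns, both sums and mice 5 to 8, 2 with one fit, 4 in mice 1 to 4, and 0 to 2 leaving out 1 mouse. Footprint genes called, 3102, were 1775 with DESeq2 and 1684 with one fit. Plain library sizes called 3447 footprint genes, 66.3% of them higher against 46.7% with TMM, and moved the median of all genes to 0.065. In TE 68.2% against 43.5% were higher. TE genes called, 949, were 1811 with mouse as a replicate block, 1806 in mice 1 to 4, 543 and 579 with the KO libraries or both sets summed, 1921 with limma voom, and 419 to 1289 leaving out 1 mouse (lowest without KO mouse 2). TE members called, 2, were 5 with the block, 5 in mice 1 to 4, 4 with voom, and 2 to 4 leaving out 1 mouse. Footprints per RNA in control mice 1 and 3 became, with exon columns, 0.80 for Map1a, 0.58 for Map1b, 1.19 for Map1s, -0.999 for Map2, -0.020 for Map4, 0.46 for Map6, 0.19 for Mapt, -1.41 for Dcx and 0.93 for Stmn2. Sign changes in TE were, for Map4, -0.0022 (DESeq2), -0.0028 (its size factors), -0.11 (exon), -0.013 (replicate block), -0.015 (mice 1 to 4), -0.037 and -0.025 (KO or both sets summed) and -0.021 to 0.045 leaving out 1 mouse. For Mapt TE they were 0.029 (plain sizes), 0.059 (exon) and -0.064 to 0.015 leaving out 1 mouse, and for Stmn2 TE 0.039 (plain sizes). With plain sizes footprints of Mapt were at 0.013 and of Dcx at 0.047. RNA of Map1a was at 0.025 and 0.030 (KO or both sets summed), 0.047 (mice 5 to 8) and -0.054 to 0.0064 leaving out 1 mouse. RNA of Map6 was at 0.011 (exon), 0.050 (mice 1 to 4) and -0.037 to 0.016 leaving out 1 mouse. RNA of Mapt was at 0.025 (mice 1 to 4) and -0.054 to 0.015 leaving out 1 mouse. Depth limits Dcx most: its footprint interval of -0.23 to 0.20 includes a change of the size seen for Map4.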
